A study of Mus musculus with 5 samples.

Results

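The FHL, tensin and protein 4.1-like families encode scaffold and linker proteins, many of them at the actin cytoskeleton and the membrane. Their RNA was followed in TER119+ erythroid cells sorted from mouse fetal liver at 14.5 days post conception. The 10 members are Fhl1, Fhl2, Fhl3, Tns1, Tns2, Tns3, Epb41l1, Epb41l2, Epb41l3 and Epb41l4a, out of 39179 genes in the count table. They were named one by one and chosen by their families after the KO and control values of some of them were already known, so their differences between the groups are given as a description. Where the fit across all genes called a member, that is stated to place it, and nothing is supported with it. The 2 KO libraries came from C57BL/6 embryos of genotype Csnk2bfl/fl Vav+/Cre, and the 3 control libraries from C57BL/6 embryos of genotype Csnk2b+/+ Vav+/Cre. Both groups thus carry the Cre transgene, which the Vav1 promoter drives across the blood-forming lineages, and only the KO embryos carry floxed Csnk2b, which encodes the regulatory subunit of CK2, a protein kinase. All 5 samples were untreated. The labels do not say whether a library held the cells of 1 embryo or of several, so the spread between libraries is all that the errors measure, and it may be technical.

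FHL proteins are built from LIM domains, zinc-binding folds that hold other proteins, and act as scaffolds at muscle sarcomeres, at integrin adhesions and in the nucleus. Tensins bind actin at one end and the tails of beta integrins at the other, and so couple the cytoskeleton to adhesion sites. The protein 4.1 family is named after protein 4.1R, the product of Epb41, which fastens spectrin and actin to the red cell membrane. Its relatives share a membrane-binding FERM domain and are best known from neurons, epithelia and glia.

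Of the members, Fhl1 and Epb41l1 stood far higher in KO than in control cells, Epb41l2 moderately higher, and Tns1 lower. Fhl3, Tns2, Tns3 and Epb41l3 did not pass the threshold of the fit across all genes, and Fhl2 and Epb41l4a were at a handful of reads in every library. The fit was edgeR's quasi-likelihood test with Benjamini-Hochberg adjustment over 13000 genes and a threshold of 0.05. Of the 8 members that passed the filter on low counts, 3 were called higher in KO, where 5.15% of all genes tested were, and 1 lower, where 1.83% were. In total 4 members were called beside 6.98% of all genes tested. The CPM values of the groups did not overlap for 6 of the 8, as for 41.2% of all genes tested. Since knowledge of this contrast led to the members, nothing is read from these shares.

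Totals ran from 13187094 to 14986630 counts in KO libraries and from 13543392 to 15366021 in controls, and 1 CPM, a read count scaled to the library total, is about 13.2 to 15.4 reads before the totals are scaled. The erythroid label fitted its markers: 10 of 10 were measured, Hbb-bs averaged 18132 CPM in KO and 17893 in control cells, and 0 passed in edgeR, 2 at an unadjusted p below 0.05, 1 in DESeq2 and 0 in limma-voom. Counts at an unadjusted p below 0.05, here and below, stand without the share of all genes tested, so no excess is read from them. In this fit the gene Igfbp5 had an unadjusted p of 0.049 and an adjusted p of 0.21 (edgeR), so such values were common. Csnk2b itself was at 112 and 95.6 CPM in KO replicates 1 and 2, against 186, 186 and 169 in control replicates 1, 2 and 3. On the log2 scale it fell by 0.80 ± 0.09 (SE; adjusted p = 0.0018, edgeR); the counts cover the whole gene, not only its deleted part. Control replicate 3 was the only library with more than 2 reads of any of 4 Y-linked genes examined, such as 454 of Eif2s3y against 0 in the other 4, while its Xist, at 547 CPM, was below the 788 to 1026 CPM elsewhere. Values without that library are given below for Fhl1, for Fhl3 and for the calls of named genes that it changed.

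Promoter windows of the 4 members called are shown because these genes differed most and in both directions. RefSeq windows on GRCm38.p6, the assembly that mm10 names, were matched by symbol for 9 of the 10 members, which gave 15 windows. Each sequence holds the 250 bases before an annotated start, on the strand of the gene, and capitals mark the letters of a searched motif. Of 2 overlapping Epb41l1 windows the first is shown. Upstream and downstream name the order of the windows found. In GENCODE M21 Fhl1 begins at 56731787 and Epb41l2 at 25359798. All windows of these 2 genes lie inside the gene, so their most upstream annotated starts are not covered.
Fhl1 upstream start, chrX:56779433-56779682, plus strand: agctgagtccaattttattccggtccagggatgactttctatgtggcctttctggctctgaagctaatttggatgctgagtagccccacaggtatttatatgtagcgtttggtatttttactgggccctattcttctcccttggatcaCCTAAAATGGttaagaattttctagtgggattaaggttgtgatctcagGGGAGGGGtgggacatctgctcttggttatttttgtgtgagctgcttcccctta
Fhl1 downstream start, chrX:56786277-56786526, plus strand: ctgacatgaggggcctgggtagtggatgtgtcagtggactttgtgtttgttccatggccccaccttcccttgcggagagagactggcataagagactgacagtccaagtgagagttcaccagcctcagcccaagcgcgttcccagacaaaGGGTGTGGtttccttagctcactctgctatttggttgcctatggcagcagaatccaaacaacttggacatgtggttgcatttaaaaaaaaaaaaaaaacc
Epb41l1 upstream start, chr2:156420659-156420908, plus strand: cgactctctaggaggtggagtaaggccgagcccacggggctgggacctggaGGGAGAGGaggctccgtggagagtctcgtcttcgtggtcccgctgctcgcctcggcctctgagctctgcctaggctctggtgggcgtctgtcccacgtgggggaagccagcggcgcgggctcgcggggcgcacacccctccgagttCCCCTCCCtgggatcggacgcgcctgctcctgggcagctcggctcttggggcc
Epb41l1 downstream start, chr2:156475284-156475533, plus strand: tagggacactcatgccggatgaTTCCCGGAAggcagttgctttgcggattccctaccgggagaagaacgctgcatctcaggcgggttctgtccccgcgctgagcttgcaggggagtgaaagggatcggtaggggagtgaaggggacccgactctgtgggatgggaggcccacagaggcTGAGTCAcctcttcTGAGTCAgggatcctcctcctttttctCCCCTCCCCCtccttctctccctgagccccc
Epb41l2, chr10:25408118-25408367, plus strand: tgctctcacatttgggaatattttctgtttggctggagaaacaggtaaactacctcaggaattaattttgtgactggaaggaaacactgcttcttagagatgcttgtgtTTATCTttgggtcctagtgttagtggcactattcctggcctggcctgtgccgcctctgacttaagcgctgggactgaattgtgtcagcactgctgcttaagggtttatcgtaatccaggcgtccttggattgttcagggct
Tns1, chr1:74124549-74124798, minus strand: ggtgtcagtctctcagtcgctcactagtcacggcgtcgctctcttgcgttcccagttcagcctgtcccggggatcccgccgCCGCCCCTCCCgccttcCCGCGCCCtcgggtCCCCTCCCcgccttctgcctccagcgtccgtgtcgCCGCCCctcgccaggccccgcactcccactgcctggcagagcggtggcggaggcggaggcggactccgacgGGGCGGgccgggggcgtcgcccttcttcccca

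The motifs, searched on both strands, were AGATAA and TGATAA (bound by GATA factors), CCNCNCCC (a CACC element, bound by Krüppel-like factors), GGGCGG (GC box), TGANTCA (AP-1), TGATGNAA (the composite element of ATF and C/EBP factors), TTCNNNGAA (STAT), the CArG box of SRF and the p53 half-site. A GC box can lie inside a CACC element. The upstream Fhl1 window held 1 CArG box, from base -102 to -93 before the start, and 1 CACC element. Both Fhl2 windows, not shown, held a CArG box too. Across 32851 RefSeq windows of the same length, 1.47% held a CArG box. The downstream Fhl1 window held 1 CACC element, as 45.9% of all windows did. In the downstream Epb41l1 window lay 2 AP-1 elements, at -72 to -66 and -58 to -52, beside 1 STAT and 2 CACC elements. AP-1 letters were in 6.75% of all windows and STAT letters in 7.02%. The upstream Epb41l1 window held 2 CACC elements, and the window overlapping it, not shown, 5 CACC elements and 2 GC boxes. The Epb41l2 window held 1 GATA element at -141 to -136 (9.99% of all windows held AGATAA). The Tns1 window held 3 CACC elements and 3 GC boxes (32.7% of all windows held a GC box). These are matches of letters, and gene-level counts do not tell which start was used.

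Fhl1, a scaffold of skeletal and heart muscle whose human gene is mutated in several myopathies, had the greatest fold difference of the members, though in CPM the gap of Epb41l1 was wider. It was at 67.9 and 56.8 CPM in KO replicates 1 and 2, against 6.18, 6.86 and 7.07 CPM in control replicates 1, 2 and 3. Both KO libraries lay far above every control, and the 3 controls lay close together. The reads behind these values were 883 and 876 in KO libraries and 90 to 102 in controls, so counting error is small beside the gap. The KO mean was 62.3 CPM ± 7.85 (SD, n = 2) and the control mean 6.70 CPM ± 0.47 (SD, n = 3), a 9.29-fold difference with a log2 fold change of 3.22 ± 0.11 (SE). By size, 32 of the 13000 genes tested had a higher log2 fold change. Fhl1 lies on the X chromosome, from 56731787 to 56793346 on the plus strand of GRCm38, so its values were also taken without control replicate 3, the library with Y-linked reads: the log2 fold change was then 3.26. In cells measured in bulk, more RNA per cell and more cells of a kind that makes the RNA cannot be told apart, for Fhl1 as for all genes that follow.

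Fhl3, an actin-binding relative known from skeletal muscle, was at 2.92 and 2.92 CPM in KO replicates 1 and 2, against 1.74, 1.52 and 2.50 CPM in control replicates 1, 2 and 3. The KO libraries lay just above the highest control. The log2 fold change was 0.60 ± 0.23 (SE), which did not pass the threshold, from 20 to 45 reads a library. Without control replicate 3, the highest control, it was 0.83, and without control replicate 2 it was 0.47. Neither of these passed. Fhl2, a transcriptional cofactor and integrin partner best known from the heart, had 0 and 1 reads in KO libraries and 0, 1 and 2 in controls. That is under the limit that 3 reads set, 0.195 to 0.227 CPM in these libraries, so no difference in Fhl2 was detectable at this depth. Of the FHL genes that are not members, Fhl4, known in mouse from the testis, had 4 and 4 reads in KO libraries and 9, 4 and 5 in controls, and Fhl5, the activator of CREM in testis, had 0 in all 5. Neither passed the filter.

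**Figure D1:**
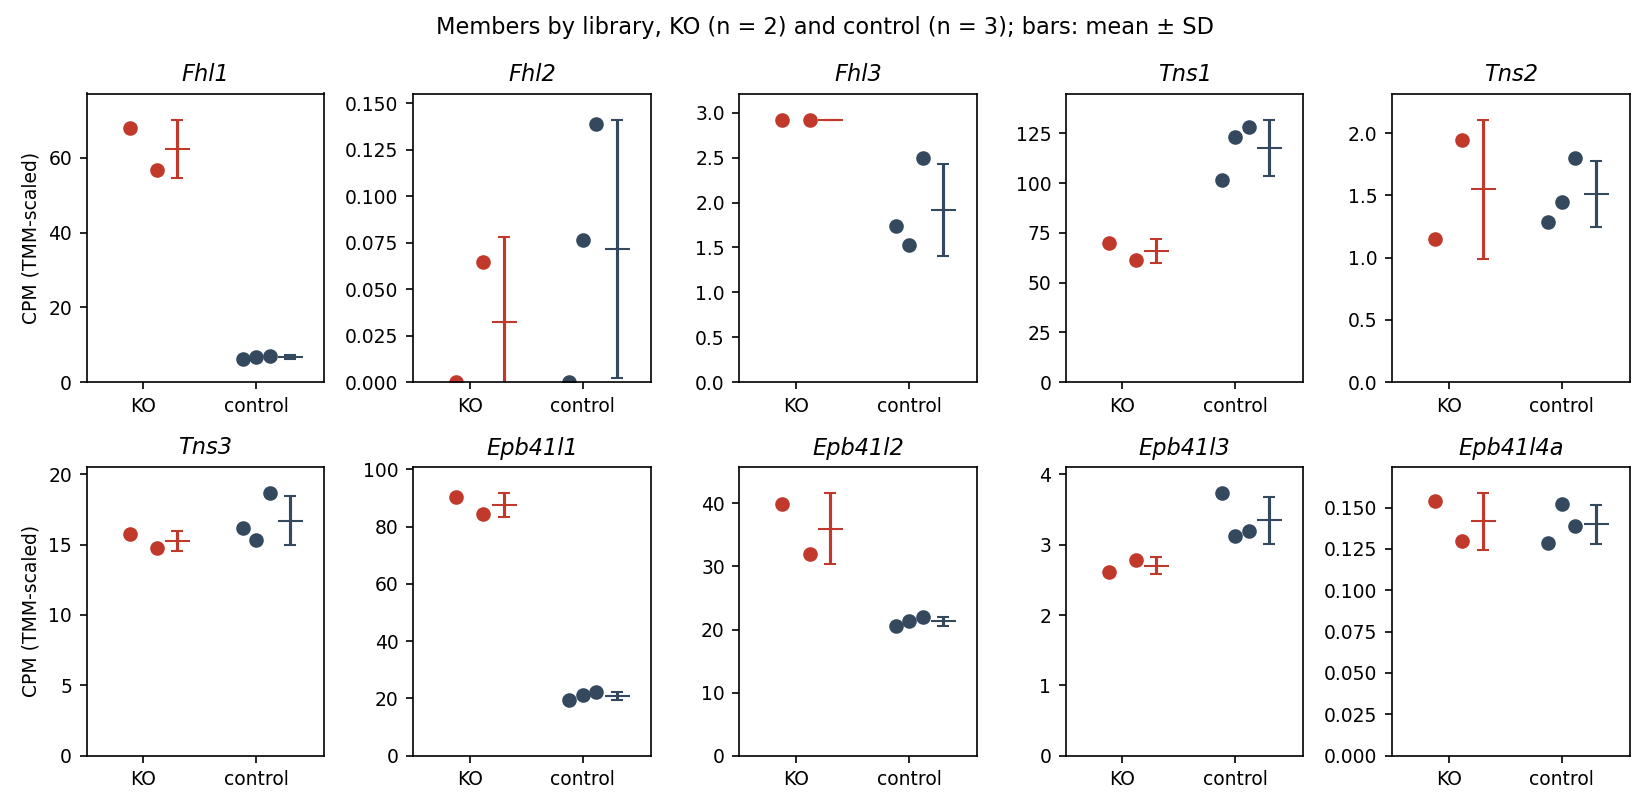
CPM (on the TMM-adjusted library size; linear axes that start at 0 and differ in scale) of the 10 members in KO (n = 2) and control (n = 3) libraries, with points for libraries and bars for mean ± SD. Fhl1, Epb41l1 and Epb41l2 sit above every control in both KO libraries and Tns1 below, while Fhl2 and Epb41l4a stay under 0.16 CPM.

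Among the tensins only Tns1, the broadly expressed founding member, for which an erythroid form has been described in human erythroblasts, was called in edgeR. It was at 69.9 and 61.5 CPM in KO replicates 1 and 2, against 102, 123 and 128 CPM in control replicates 1, 2 and 3. No KO library reached the lowest control. The KO mean was 65.7 CPM ± 5.97 (SD, n = 2) and the control mean 118 CPM ± 14.2 (SD, n = 3), so that the control level was 1.79 times the KO level. The log2 fold change was -0.84 ± 0.11 (SE), and 52 of the 13000 genes tested had a lower one. It ranged from -0.96 to -0.75 over the fits that left out 1 library each.

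Macrophage markers moved in the same direction as Tns1. Their summed level was 86.1 and 82.8 CPM in KO replicates 1 and 2, against 106, 110 and 119 CPM in control replicates 1, 2 and 3. Of 12 markers 11 were tested and 3 fell, namely Adgre1 (edgeR adjusted p = 0.016), Vcam1 (0.017) and C1qc (0.033), beside 1.83% of all genes tested. At an unadjusted p below 0.05 there were 10 of the 11. The groups did not overlap for 10, beside 41.2% of all genes tested, and the median log2 fold change was -0.65 beside 0.01 for all genes tested. Each of these 3 missed the threshold in at least 3 of the 5 fits without a library, Adgre1 in those without any 1 control (adjusted p at most 0.072), Vcam1 in those and the one without KO replicate 2 (at most 0.080), and C1qc in the fits lacking KO replicate 2 or either of control replicates 2 and 3 (at most 0.14) and with the replicate block (0.054). Cd163, a marker of mature macrophages, had at most 1 read in any library. The control mean of Tns1 was 51.9 CPM above its KO mean. The part of macrophage RNA in the Tns1 value was not tested.

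Tns3, a tensin tied to growth factor receptor signalling, was at 15.8 and 14.8 CPM in KO replicates 1 and 2, against 16.1, 15.3 and 18.7 CPM in control replicates 1, 2 and 3. The groups overlapped, and the log2 fold change was -0.13 ± 0.12 (SE). Tns2, which binds the insulin signalling adaptor IRS1, was at 1.15 and 1.94 CPM in KO replicates 1 and 2, against 1.29, 1.45 and 1.80 CPM in control replicates 1, 2 and 3. The KO libraries enclosed the controls, and the log2 fold change of 0.06 ± 0.27 (SE) changed sign with the libraries used, at -0.39 without KO replicate 2, -0.05 without control replicate 1 and 0.34 without KO replicate 1. Tns4, the tensin that lacks the actin-binding region and is not a member, had 2 and 2 reads in KO libraries and 5, 3 and 3 in controls, too few to be tested.

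Among the protein 4.1-like genes, Epb41l1, which encodes the neuronal protein 4.1N, differed most. It was at 90.4 and 84.4 CPM in KO replicates 1 and 2, against 19.4, 21.0 and 22.1 CPM in control replicates 1, 2 and 3. The groups stood far apart and each was tight. The KO mean was 87.4 CPM ± 4.21 (SD, n = 2) and the control mean 20.9 CPM ± 1.35 (SD, n = 3), a 4.19-fold difference. Its log2 fold change was 2.07 ± 0.08 (SE), with 95 of the 13000 genes tested above it, and lay between 2.00 and 2.11 in the fits that left out 1 library each.

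Epb41l2, the gene of the widely expressed protein 4.1G, was at 40.0 and 32.0 CPM in KO replicates 1 and 2, against 20.5, 21.4 and 21.98 CPM in control replicates 1, 2 and 3. Both KO libraries were above every control, KO replicate 1 more so. The 1.69-fold difference, a log2 fold change of 0.75 ± 0.11 (SE), went to 0.57 without KO replicate 1 and to 0.90 without KO replicate 2. Epb41l3, the gene of protein 4.1B, which is lost in some human lung and brain tumours, went slightly the other way. It was at 2.61 and 2.79 CPM in KO replicates 1 and 2, against 3.73, 3.13 and 3.19 CPM in control replicates 1, 2 and 3. Its log2 fold change of -0.31 ± 0.18 (SE) did not pass the threshold, although the groups did not overlap. Epb41l4a had 2 reads in each of the 5 libraries, a level at which no difference can be seen.

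The other protein 4.1 genes are not members and were tested. Epb41l4b, also called EHM2, rose: it was at 7.53 and 5.05 CPM in KO replicates 1 and 2, against 2.32, 2.44 and 2.57 CPM in control replicates 1, 2 and 3. That is a log2 fold change of 1.35 ± 0.21 (SE; adjusted p = 0.0067 in edgeR), higher in 2 of 2 KO libraries than in any control. It met the threshold in 11 of 12 alternatives and missed it without control replicate 2 (adjusted p = 0.05005). Epb41, the gene of protein 4.1R itself, was at 2901 and 2336 CPM in KO replicates 1 and 2, against 2835, 3094 and 3004 CPM in control replicates 1, 2 and 3. Its log2 fold change was -0.19 ± 0.12 (SE, edgeR adjusted p = 0.38), but without KO replicate 1 it was -0.37 and passed (adjusted p = 0.016). Epb41l5, which has roles in epithelial polarity and cell movement in the mouse embryo, had a log2 fold change of -0.17 ± 0.11 (SE, edgeR adjusted p = 0.38).

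**Figure D2:**
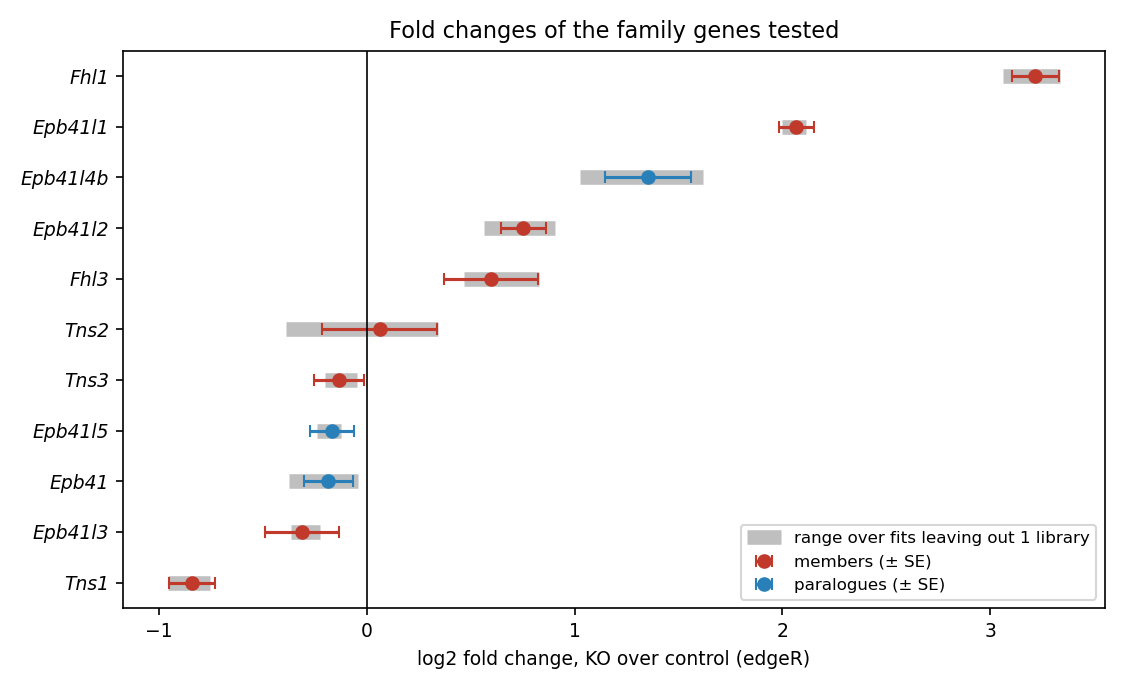
Log2 fold change, KO over control, of the 8 members and 3 paralogues that were tested, with points and bars for the edgeR estimate ± SE and grey bands for the range over the 5 fits that left out 1 library each. Fhl1 and Epb41l1 lie at 3.22 and 2.07 with narrow bands, Epb41l4b and Epb41l2 at 1.35 and 0.75, Tns1 at -0.84, and the band of Tns2 crosses 0.

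Compared per length, as length-scaled shares of the library (TPM) over the union of annotated exons, the families were each led by 1 gene. In the FHL family Fhl1 stood at 51.7 TPM ± 5.19 in KO (SD, n = 2) and 5.62 TPM ± 0.41 in control cells (SD, n = 3), ahead of Fhl3 at 5.35 TPM ± 0.13 in KO and 3.57 TPM ± 1.07 in control cells (SD, n = 2 and 3). In controls these neighbours were close, with Fhl3 at 2.66 to 4.75 TPM and Fhl1 at 5.34 to 6.10. Among tensins the order was Tns1, Tns3, Tns2 and Tns4 in both groups, with Tns1 at 12.6 TPM ± 0.83 in KO and 22.9 TPM ± 2.65 in control cells (SD, n = 2 and 3). Tns3 followed at 4.21 TPM ± 0.08 in KO and 4.67 TPM ± 0.66 in control cells (SD, n = 2 and 3).

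Epb41 far outranked its relatives, at 505 TPM ± 64.3 in KO and 581 TPM ± 18.7 in control cells (SD, n = 2 and 3). In KO cells Epb41l1 was next at 23.4 TPM ± 0.53 (SD, n = 2) and Epb41l2 followed at 9.35 TPM ± 1.22 (SD, n = 2), with ranges that did not meet. In control cells Epb41l1 at 5.64 TPM ± 0.44 and Epb41l2 at 5.61 TPM ± 0.31 (SD, n = 3 each) overlapped by this length. Over the longest transcript they did not, with Epb41l1 at 7.52 to 8.55 TPM and Epb41l2 at 11.4 to 12.6 TPM, so their order in controls depends on the length used. In KO cells Epb41l4b was at 2.18 TPM ± 0.55 and Epb41l3 at 0.70 TPM ± 0.05 (SD, n = 2 each). In control cells they overlapped, at 0.86 TPM ± 0.06 and 0.88 TPM ± 0.12 (SD, n = 3 each), but over the longest transcript Epb41l4b was at 0.84 to 0.96 TPM and Epb41l3 at 1.79 to 2.32 TPM.

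Summed over members and paralogues, FHL genes had 71.1 and 60.005 CPM in KO replicates 1 and 2, against 8.49, 8.77 and 10.1 CPM in control replicates 1, 2 and 3. Tensin genes summed to 87.0 and 78.3 CPM in KO replicates 1 and 2, against 119, 140 and 149 CPM in control replicates 1, 2 and 3. The protein 4.1-like genes without Epb41 summed to 155 and 140 CPM in KO replicates 1 and 2, against 63.1, 65.1 and 65.8 CPM in control replicates 1, 2 and 3. No sum overlapped between the groups, and each followed its leading gene or genes.

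**Figure D3:**
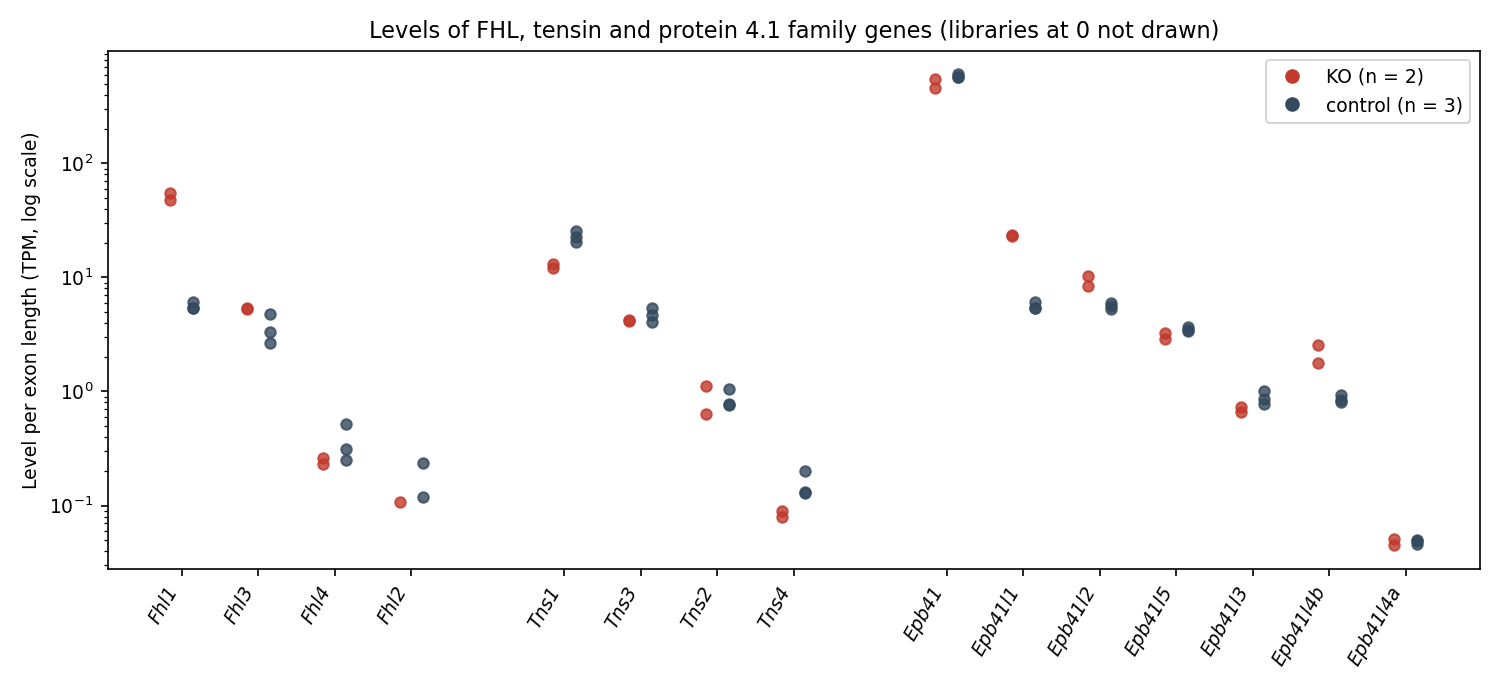
Level per exon length in TPM (log axis) of the FHL, tensin and protein 4.1 genes, each point 1 library, KO left of control for each gene. Fhl5 and libraries at 0 are not drawn. Epb41 lies at 505 TPM in KO and 581 TPM in control cells on average, above all its relatives, and over the union of exons Epb41l1 and Epb41l2 overlap in controls at about 5.6 TPM but not in KO.

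Exons of the 10 members overlapped no other gene in GENCODE M21, so reads shared with an antisense partner do not enter their counts. Protein-coding genes near either side of the 4 members called were also read from the fit, a comparison chosen after the members' values were seen. Beside Fhl1, Mmgt1 and Map7d3 had log2 fold changes of -0.24 and -0.05. Beside Epb41l1, Cnbd2, Scand1, Aar2 and Dlgap4 were at 0.12, 0.87, 0.16 and 0.20. Igfbp5 and Cxcr2 beside Tns1 were at 0.65 and -0.25, and Akap7 beside Epb41l2 at -0.38. None of the neighbours named here passed (edgeR adjusted p from 0.055 to 0.95; 4 had an unadjusted p below 0.05, 1, Akap7, passed in DESeq2 with 0.036 and 0 in limma-voom).

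Genes with the profile most like the 3 members of greatest fold change were found by the Euclidean distance between log2 CPM values centred on the control mean, over 5 libraries and 11034 protein-coding genes with a settled symbol. Closest to Fhl1 were Ndrg4, at a distance of 0.61 with 20.1 CPM in KO and 2.29 in control cells, then Lama5 at 0.71 with 14.4 and 1.20 CPM, and Aplp1 at 0.73 with 8.74 and 0.67 CPM. Closest to Epb41l1 were Ackr3 at 0.19 with 4.44 CPM in KO and 0.96 in control cells, Phlda3 at 0.20 with 17.8 and 4.13 CPM, and H2-T23 at 0.27 with 47.0 and 11.9 CPM. Closest to Tns1 were Liph at 0.11 with 2.02 CPM in KO and 3.82 in control cells, Mocs1 at 0.12 with 76.0 and 130 CPM, and the macrophage marker C1qc at 0.13 with 3.54 and 6.39 CPM. Such distances rest on a single contrast and 5 libraries.

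RNAs of integrin adhesion proteins, the partners of tensins, were called about as often as all genes. Of 42 listed 37 were tested, 2 rose, 0 fell and 35 did not pass, where 5.15% of all genes tested rose and 1.83% fell, and the median log2 fold change was 0.08. In edgeR 8 of the 37 had an unadjusted p below 0.05. The groups did not overlap for 15 of the 37, beside 41.2% of all genes tested. Without KO replicate 1, which leaves a lone KO library, 7 rose and 4 fell, and DESeq2 called 2 higher and 1, Itga4, lower. Ptk2, the focal adhesion kinase, was at 107 CPM in KO and 82.2 in control cells, a log2 fold change of 0.38 ± 0.07 (SE, edgeR adjusted p = 0.016). Tln2, a talin that links integrins to actin, was at 5.77 CPM in KO and 3.15 in control cells, a log2 fold change of 0.87 ± 0.16 (SE, edgeR adjusted p = 0.016). Tln1 and Actn4, the most abundant of the list, had log2 fold changes of 0.08 ± 0.09 and 0.00 ± 0.09 (SE). Both calls were lost in 3 of the 5 fits without a library: Ptk2 whichever control was dropped (adjusted p at most 0.090), and Tln2 in the fits lacking KO replicate 2 or either of control replicates 1 and 2 (up to 0.088), and in DESeq2 (0.061).

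Targets of SRF and its cofactors, which control many actin cytoskeleton genes, did not pass as single genes. Of 21 listed 15 were tested and 0 passed in edgeR, with 5 at an unadjusted p below 0.05, 1 in DESeq2 and 0 in limma-voom, and a median of 0.09. Actb was at 3034 CPM in KO and 2887 in control cells, and Myh9, non-muscle myosin, at 734 and 629 CPM, with log2 fold changes of 0.07 ± 0.11 and 0.22 ± 0.08 (SE). Without KO replicate 1, Myh9 (edgeR adjusted p = 0.044), Tagln2 and Tpm2 passed, all 3 higher, and without KO replicate 2 only Mrtfb did, also higher. Of the smooth muscle targets, Acta2, Tagln and Cnn1 were under 0.6 CPM in all 5 libraries, while Myl9, Cald1 and Tpm2 were at 1.07 to 3.99 CPM.

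Of 25 other LIM proteins of the cytoskeleton 19 were tested, and 2 rose, 0 fell and 17 did not pass. Among all genes tested 5.15% rose and 1.83% fell. An unadjusted p below 0.05 in edgeR was reached by 8 of the 19, and the median log2 fold change was 0.15. Wtip, of the Ajuba family at cell junctions, was at 3.54 and 3.89 CPM in KO replicates 1 and 2, against 0.84, 0.76 and 0.76 CPM in control replicates 1, 2 and 3. Its log2 fold change of 2.23 ± 0.19 (SE, edgeR adjusted p = 0.00061) passed in each fit without a library. Csrp2, a LIM protein of smooth muscle, had one of 0.78 ± 0.16 (SE, edgeR adjusted p = 0.025), which was lost in the fits lacking a control or KO replicate 2 (at most 0.10), with DESeq2 (0.20) and with the replicate number as a block (0.071).

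Of 22 other FERM-domain genes 21 were tested, and 3 rose, 1 fell and 17 did not pass, with a median of -0.07. Of all genes tested 5.15% rose and 1.83% fell. At an unadjusted p below 0.05 in edgeR there were 8 of the 21. Ptpn3, a membrane-bound tyrosine phosphatase, was at only 0.88 CPM in KO and 0.25 in control cells, with a log2 fold change of 1.75 ± 0.31 (SE, edgeR adjusted p = 0.013). Frmd8, which stabilises the iRhom and ADAM17 complex, had one of 0.53 ± 0.09 (SE, edgeR adjusted p = 0.013). Frmd4a, a scaffold of epithelial polarity, fell by 0.48 ± 0.10 on the log2 scale (SE, edgeR adjusted p = 0.022), and the remaining gene to rise was Frmd5, at 0.84 ± 0.20 (SE, edgeR adjusted p = 0.041). Frmd8 and Frmd4a were lost when a single control was dropped, whichever it was (adjusted p at most 0.072 and 0.10). Ptpn3 was lost in the fits lacking KO replicate 2 or either of control replicates 1 and 2 (at most 0.063) and in DESeq2 (0.26). Frmd5 missed it in each of the 5 fits without a library (up to 0.16).

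The red cell membrane skeleton, which protein 4.1R joins, had all 18 genes listed tested. In edgeR 1 rose, 0 fell and 17 did not pass, where 5.15% of all genes tested rose and 1.83% fell. The median log2 fold change was -0.12, and 4 of the 18 had an unadjusted p below 0.05 in edgeR, a count not set beside all genes tested. DESeq2 instead called 0 higher and 2 lower, Epb42 and Tmod1. The one to rise was Tpm3, a tropomyosin of the short actin filaments, at 116 CPM in KO and 95.8 in control cells, with a log2 fold change of 0.27 ± 0.07 (SE, edgeR adjusted p = 0.040), lost in the fits lacking a control or KO replicate 2 (at most 0.16), without globin and mitochondrial genes (0.053), with DESeq2 (0.071) and with the replicate block (0.12). The call of Tpm3 was also lost with no filter on low counts (edgeR adjusted p = 0.086). Slc4a1, the anion exchanger band 3, and Sptb, beta spectrin, had log2 fold changes of -0.12 ± 0.14 and -0.01 ± 0.12 (SE). Without KO replicate 1 the list had 1 rise and 9 falls, and its median was -0.25; that fit leaves a lone KO library, which is assumed to vary like the controls.

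**Figure D4:**
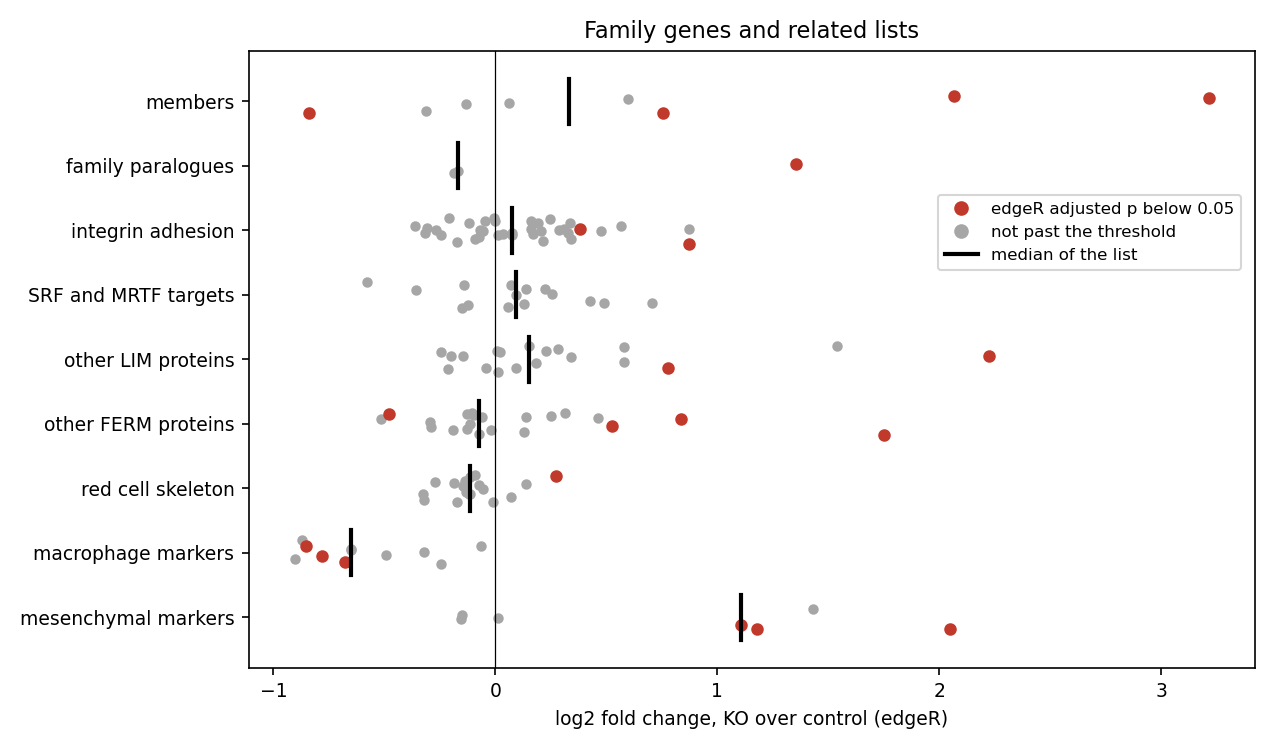
Log2 fold change, KO over control, of each tested gene in the family lists, the related lists and the macrophage and mesenchymal markers (vertical scatter within a row carries no meaning), with red points for an edgeR adjusted p below 0.05 and black bars for the median of a list. Fhl1 at 3.22 lies beyond every other point, and the related lists centre near 0, with medians from -0.12 to 0.15.

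Markers of mesenchymal cells, which the TER119 sort should remove, were also measured. Their summed level was 180 and 159 CPM in KO replicates 1 and 2, against 122, 100 and 122 CPM in control replicates 1, 2 and 3. Of 14 markers 7 were tested, and 4 of the 7 had an unadjusted p below 0.05 in edgeR. The groups did not overlap for 3 of the 7, beside 41.2% of all genes tested. The median log2 fold change was 1.11 beside 0.01 for all genes tested. This median fell to 0.48 and 0.42 in the fits lacking KO replicates 1 and 2. With all 5 libraries 3 markers rose past the threshold, beside 5.15% of all genes tested. They were Col1a1, Col1a2 and Reln, with log2 fold changes of 2.05, 1.11 and 1.18 (edgeR adjusted p = 0.016, 0.037 and 0.030). These sizes rest on single KO libraries: Col1a1 was at 1.11 and Col1a2 at 0.55 without KO replicate 2, and Reln at 0.48 without KO replicate 1. Each was lost when a single control was dropped (at most 0.090, 0.15 and 0.14), Col1a2 also without KO replicate 2 (0.19) and with limma-voom (0.054), and Reln also with DESeq2 and limma-voom (0.076 and 0.058). Most of the sum was Reln, at 93.4 and 42.3 CPM in KO replicates 1 and 2, against 30.5, 28.1 and 30.9 CPM in control replicates 1, 2 and 3, and Vim, at 66.3 and 74.2 CPM in KO against 72.4, 58.3 and 77.9 CPM in control libraries. Col1a1 was at 4.38 and 12.1 CPM in KO replicates 1 and 2, against 2.38, 1.91 and 1.73 CPM in control replicates 1, 2 and 3, so Reln was higher in KO replicate 1 and Col1a1 in KO replicate 2. Acta2, Des, Dcn, Lum, Lrat, Tagln and Pdgfra were under 0.6 CPM in all 5 libraries. The part of mesenchymal RNA in the values of Fhl1, Epb41l1 and Epb41l2 was not tested.

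The remaining marker lists had 0 genes past the threshold in edgeR with all 5 libraries, but without KO replicate 1 there were 4 megakaryocyte markers higher and 1 lower, 1 endothelial marker higher and 3 erythroid markers lower. Endothelial markers summed to 92.8 and 133 CPM in KO libraries and 111 to 133 in controls (0 of 11 called, 2 at an unadjusted p below 0.05, 0 in DESeq2 and in limma-voom). Megakaryocyte markers summed to 174 and 236 CPM in KO libraries and 171 to 189 in controls (0 of 9 called, 3 at an unadjusted p below 0.05, 1 in DESeq2, 0 in limma-voom). Granulocyte and mast cell markers summed to 741 and 626 CPM in KO libraries and 543 to 785 in controls (0 of 10 called, 2 at an unadjusted p below 0.05, 0 in DESeq2 and in limma-voom). Hepatocyte markers summed to 290 and 343 CPM in KO libraries and 244 to 387 in controls (0 of 13 called by edgeR, DESeq2 or limma-voom, 0 at an unadjusted p below 0.05).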

How the data were processed

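Poly(A) RNA of sorted TER119+ cells was read on an Ion Proton, per the labels' protocols. Reads were handled with HTSeq, STAR, Bowtie and cutadapt on mm10, per the submitters' processing notes, with versions, settings and strand use not given in the sources used here. Each library has a column of raw counts per Ensembl gene in the authors' deposited table; 37607 of 39179 identifiers matched a symbol in GENCODE M21. Members, lists and tests were chosen with earlier results of these data known.

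Counts were tested as deposited with edgeR 4.0.16 in R 4.3.3 (TMM factors 0.97 to 1.03, filterByExpr, group as the only term, quasi-likelihood F test, Benjamini-Hochberg over 13000 genes, threshold 0.05). This procedure was first tested on simulated data. CPM uses the TMM-adjusted library size. Log2 CPM for distances used a prior count of 2. SE is the fold change over the root of F. TPM used union exon length in GENCODE M21. Genes named were the members, their paralogues, Csnk2b, the 3 smallest p past the threshold of each list (the 2 most abundant where under 2 passed) and the 3 nearest profiles of 3 members. Tln1, Actn4, Frmd5, Vim, Itga4, Epb42, Tmod1, other SRF targets, the neighbours, Eif2s3y, Xist, Cd163 and other markers at low levels were named after their values were seen. A neighbouring gene is not reported here. Alternatives were other filters, DESeq2 1.42.0, RLE scaling, limma-voom (limma 3.58.1), a fit lacking globin and mitochondrial genes, a replicate block, and each library left out. Reads carry no molecular identifiers, so limits from 3 reads cover counting error only.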

Additional observations from a re-analysis of the deposited data

How the results depend on the processing

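The 4 members called (Fhl1, Epb41l1, Epb41l2 and Tns1) were called in the same direction in each of the 12 alternatives, which is a description since this contrast led to them, and the 4 others tested in none of those in which they had a value. Their log2 fold changes ranged over all alternatives from 3.06 to 3.34 for Fhl1, 2.00 to 2.11 for Epb41l1, 0.57 to 0.90 for Epb41l2 and -0.96 to -0.75 for Tns1. With no low-count filter, 288 genes passed in place of 907, and 3 of the paralogues and related lists in place of 10. More genes are then tested. Those 3 were Epb41l4b, Wtip and Ptpn3. The calls of Ptk2, Tln2, Csrp2, Frmd8, Frmd4a and Tpm3 were lost (edgeR adjusted p from 0.057 to 0.086), as was that of Frmd5. Among markers C1qc, Col1a1, Col1a2 and Reln were lost too (edgeR adjusted p from 0.096 to 0.15). Leaving out 1 library gave 241 to 2956 genes called and 1 to 36 in those lists (the lowest without control replicate 2, the highest without KO replicate 1, where the lone KO library is assumed to vary like the controls); the counts were 283 and 2 without control replicate 1 and 400 and 4 without control replicate 3. With the longest transcript as length, 2 genes changed rank within their family, Epb41l1 and Epb41l2 in controls, and the control ranges of Epb41l3 and Epb41l4b no longer met. The titles' numbers are shared by KO and control libraries 1 and 2, but are not said to mark pairs, so the libraries were not taken as pairs. Same-numbered libraries deviated together with correlations of 0.0016 and 0.042. With only 2 KO libraries, their deviations from the KO mean mirror each other, so these values cannot decide on pairing. With the replicate block 873 genes, 4 members and 8 genes of the lists were called. Depth left Fhl2, Fhl4, Fhl5, Tns4 and Epb41l4a untestable.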
